A study of Arabidopsis thaliana with 24 samples.

Results

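The 10 genes described here carry iron into the Arabidopsis root, switch that uptake on, or store iron inside the cell. They are IRT1 (AT4G19690), FRO2 (AT1G01580), FIT (AT2G28160), bHLH38 (AT3G56970), bHLH39 (AT3G56980), bHLH100 (AT2G41240), bHLH101 (AT5G04150), FER1 (AT5G01600), FER3 (AT3G56090) and FER4 (AT2G40300), taken by their locus from a choice made with earlier results of these data known, and are 10 of the 33681 genes in the deposited table. RNA-seq was performed on whole seedlings, 14 days old and grown in short days, with 3 libraries for each of 8 genotypes in the Col-0 background. The bcl7a and bcl7b mutants, which the labels also call brip3 and brip4, each carry a mutation in 1 of the related genes BCL7A and BCL7B, which encode subunits of a SWI/SNF chromatin remodelling complex built around the ATPase BRM. The brm-3 mutant carries a hypomorphic allele of BRM and the brm-1 mutant a null allele. The bcl7a bcl7b double mutant, the bcl7a bcl7b brm-3 and bcl7a bcl7b brm-1 triple mutants and WT complete the set. The comparisons ask what the loss of BCL7A and BCL7B, of BRM, or of both changes in the seedling transcriptome. No iron treatment is named in the labels, so all values describe plants at 1 iron supply.

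Iron in soil is mostly insoluble ferric iron, which Arabidopsis roots reduce at the surface with the ferric chelate reductase FRO2 and then import with the ferrous iron transporter IRT1. Transcription of both depends on FIT, a basic helix-loop-helix (bHLH) protein that acts as a partner of the 4 related bHLH proteins of subgroup Ib, bHLH38, bHLH39, bHLH100 and bHLH101. The Ib genes are known to be switched on when iron is short and to be nearly silent when it is plentiful. The ferritins FER1, FER3 and FER4 are plastid proteins that form iron-storing shells, and their transcripts are known to accumulate when iron is in excess.

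The 250 bases before the annotated gene start are printed for 3 Ib genes and 2 ferritins, because these genes moved in different directions in the mutants. The sequences are those of RefSeq for assembly TAIR10.1, each 5′ to 3′ on the strand of its gene, and capitals mark matches to a searched motif. All 10 genes were matched to that annotation by locus. bHLH38 is read from chr3:21085246-21085495 (minus strand), its tandem neighbour bHLH39 from chr3:21087711-21087960 (minus), bHLH100 from chr2:17199455-17199704 (minus), FER1 from chr5:230052-230301 (minus) and FER3 from chr3:20816036-20816285 (minus).
bHLH38: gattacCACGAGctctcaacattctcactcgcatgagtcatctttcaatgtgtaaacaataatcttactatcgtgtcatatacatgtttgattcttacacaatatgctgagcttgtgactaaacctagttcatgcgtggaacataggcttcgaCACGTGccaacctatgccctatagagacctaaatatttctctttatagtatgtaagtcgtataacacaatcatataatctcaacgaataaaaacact
bHLH39: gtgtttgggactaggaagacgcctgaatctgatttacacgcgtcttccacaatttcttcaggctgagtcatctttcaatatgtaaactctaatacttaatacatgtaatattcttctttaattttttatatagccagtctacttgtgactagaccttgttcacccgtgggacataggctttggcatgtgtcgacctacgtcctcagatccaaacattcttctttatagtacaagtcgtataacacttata
bHLH100: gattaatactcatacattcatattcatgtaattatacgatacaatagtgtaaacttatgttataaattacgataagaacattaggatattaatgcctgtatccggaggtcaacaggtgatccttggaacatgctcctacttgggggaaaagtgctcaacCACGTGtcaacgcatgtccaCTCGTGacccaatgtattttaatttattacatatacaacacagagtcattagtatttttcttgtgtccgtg
FER1: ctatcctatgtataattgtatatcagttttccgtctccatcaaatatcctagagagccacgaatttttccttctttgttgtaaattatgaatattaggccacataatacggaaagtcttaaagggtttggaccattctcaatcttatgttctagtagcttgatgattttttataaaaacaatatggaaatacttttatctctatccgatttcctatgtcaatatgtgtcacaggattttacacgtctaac
FER3: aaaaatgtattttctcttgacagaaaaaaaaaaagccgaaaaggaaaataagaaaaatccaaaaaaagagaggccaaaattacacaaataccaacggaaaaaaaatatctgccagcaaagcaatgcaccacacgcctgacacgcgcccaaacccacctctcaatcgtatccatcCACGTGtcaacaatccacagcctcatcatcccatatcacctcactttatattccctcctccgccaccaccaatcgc

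The windows searched ran from 250 bases before to 50 bases after the start, on both strands. The G-box, CACGTG, a hexamer that bHLH proteins can bind, was in 4 of the 10 windows and in 7.68% of the 27443 windows of protein-coding genes. It began 97 bases before the start of bHLH38, 91 before bHLH100, 76 before FER3 and 69 before FER4. CACGAG, the opening letters of the iron-dependent regulatory sequence known from ferritin promoters, was in 3 of the 10 windows and in 5.18% of all. It began 244 bases before bHLH38, 115 before bHLH101 and, on the other strand as CTCGTG, 71 before bHLH100. The element GNATATNC, which PHR1-type regulators of phosphate starvation can bind, was in 0 of the 10 windows and in 6.25% of all. No 2 of these matches overlapped, and a match is a description of the letters only.

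The deposited values are counts normalized by size factors, and in units of 1e6 the libraries held an estimated 19.9 to 28.0 fragments. Replicates 1 and 3 of bcl7a bcl7b agreed more closely than sampling noise allows for separate libraries, so their average was taken as 1 sample, and this genotype has n = 2 where every other has n = 3. In the same units, the values of a library summed to 16.6 to 22.1 in the 15 libraries of the 5 mutants with a brm allele or both bcl7 mutations, and to 29.9 to 40.9 in the 9 libraries of bcl7a, bcl7b and WT, so that in every comparison of those 5 mutants with WT this difference and the genotype cannot be told apart. When every library was rescaled to the same total, the median log2 fold change over all genes against WT moved to between 1.11 and 1.26 in these 5 mutants, against 0.19 to 0.35 as deposited, so that higher and lower are relative to the size factors of the authors. A single fragment corresponds to an estimated value of 0.648 to 0.896 in the 15 libraries and of 1.18 to 1.998 in the 9. The 1.998, of WT replicate 2, is the upper limit of the values searched and had the poorest fit, with 74.0% of low values near whole multiples. The value of 1 fragment in that library is therefore uncertain. BRM was at 31.2 to 44.8 in brm-1 and 17.9 to 43.6 in bcl7a bcl7b brm-1, against 111 to 349 in WT, and BCL7B was at 0 in every library that carries bcl7b except 1 library of bcl7a bcl7b brm-3, at 23.97. BCL7A was at 0 to 12.4 in the libraries that carry bcl7a, against 0, 18.1 and 30.1 in WT. Genes were tested with limma on log2(normalized count + 1), among the 21596 genes that reached a value of 10 in 3 or more libraries. To pass the thresholds, a gene needed an adjusted p (Benjamini-Hochberg) below 0.05 and a log2 fold change beyond 0.6 in size; for interaction terms only the adjusted p was used. Fold changes are on that scale, which understates the change of low genes, and none is given against a genotype listed wholly at 0. All 7 mutants are set against the same 3 WT libraries. WT replicate 1 stood apart, with 16191 genes at 0, the most of all 24 libraries, against 13250 and 13368 in WT replicates 2 and 3. Its log2 ratios to replicates 2 and 3 had SDs of 1.73 and 1.78, against 1.06 between replicates 2 and 3. Where 3 values are listed, they are in replicate order, so that the first WT value is from this library.

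Of the 10 genes, the ferritins and FIT were at or above 10 in all 24 libraries. IRT1 was so in 12 libraries, bHLH101 in 10, bHLH39 in 9, FRO2 in 7, bHLH38 in 4 and bHLH100 in 3. All 10 therefore passed the filter, but bHLH100 only through the 3 brm-3 libraries and bHLH38 through those 3 and 1 of bcl7a bcl7b, so that a difference in these genotypes was built into their entry to the test. For the comparisons that include brm-3, these 2 genes are therefore given by their values, with no test. The same holds for bHLH38 in comparisons that include bcl7a bcl7b.

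**Figure D1:**
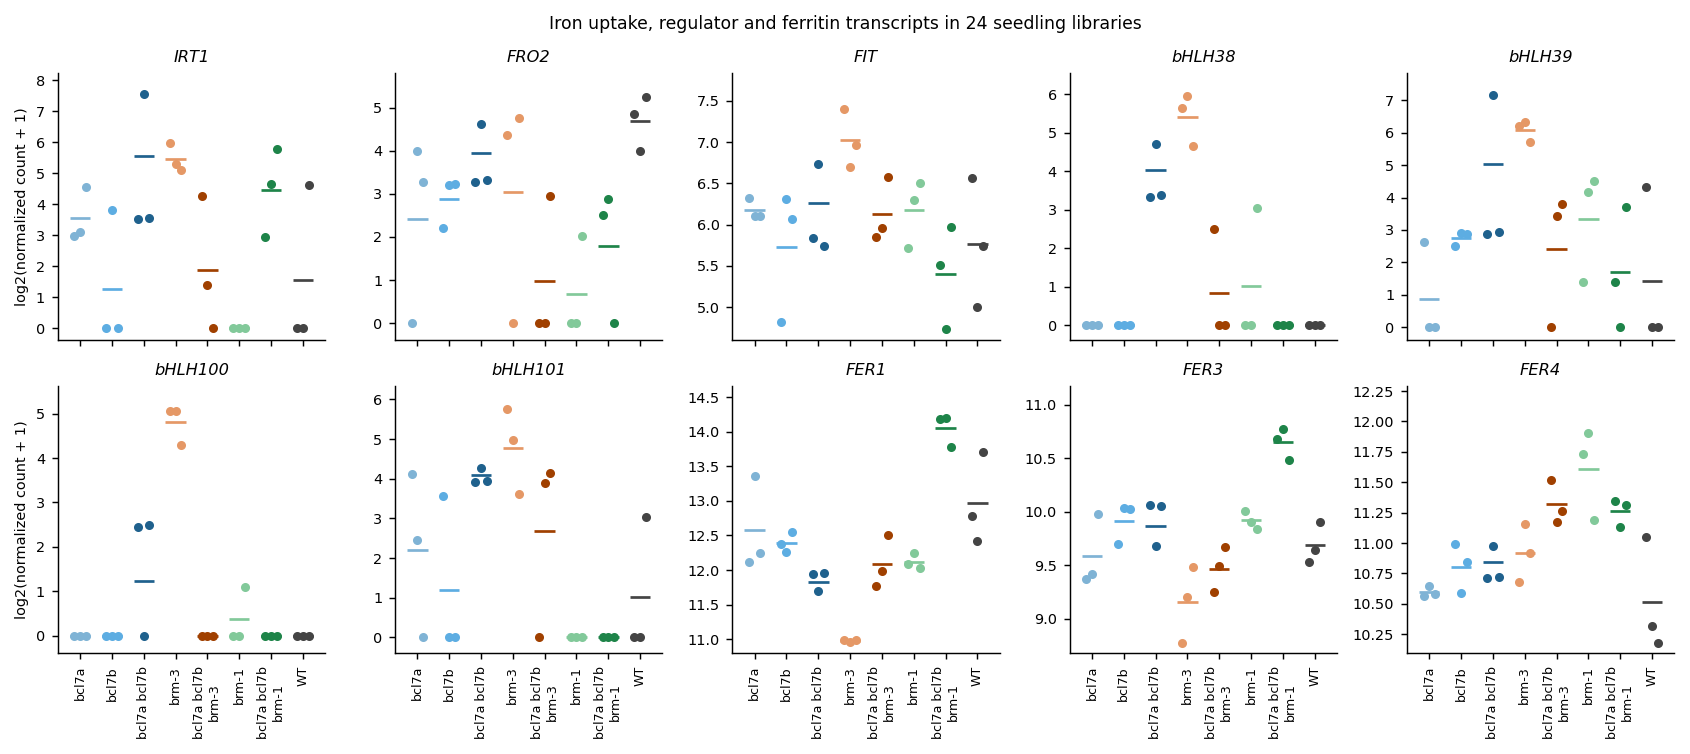
Normalized counts of the 10 genes on a log2(normalized count + 1) axis in 24 libraries, 1 point per library, with the mean of each genotype as a line (replicates 1 and 3 of bcl7a bcl7b averaged first). The 3 brm-3 libraries lie above all WT libraries for the Ib bHLH genes and are the lowest of all for FER1, while the 3 bcl7a bcl7b brm-1 libraries are the highest for FER1 and FER3. Of the Ib genes, bHLH38 and bHLH100 entered the test only or mainly through the brm-3 libraries.

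In brm-3 seedlings FIT, IRT1 and the Ib genes stood higher than in WT and FER1 stood lower. Relative to WT, 7 of the 10 genes were past the thresholds, 6 higher and 1 lower, where 40.0% of all genes tested were. The count is a description, since it includes bHLH38 and bHLH100, which entered the test through the brm-3 libraries. The other higher genes were FIT, IRT1, bHLH39 and bHLH101, and the lower one was FER1.

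All 4 Ib genes stood higher in every brm-3 library than in any WT library, which is a description. For bHLH38 and bHLH100 it follows in part from their entry to the test through the brm-3 libraries. The share of all genes with such a separation was not counted, and 40.0% of all genes tested were called in this comparison. bHLH38, which pairs with FIT to activate IRT1 and FRO2, was at 49.3, 60.9 and 24.01 in brm-3, and was listed at 0 in all 3 WT libraries. bHLH100 was at 32.6, 32.2 and 18.6 in brm-3 and likewise listed at 0 in WT. Neither gene had a value above 0 in bcl7a, bcl7b or bcl7a bcl7b brm-1 either. bHLH39, next to bHLH38 on chromosome 3 and equally a FIT partner, was at 72.7, 79.0 and 51.4 in brm-3, against 18.8, 0 and 0 in WT. Its log2 fold change was 4.64 ± 1.33 (SE, limma adjusted p = 0.00761), and moved to 6.08 without WT replicate 1 and to 3.92 without WT replicate 2 or 3, with the call kept. bHLH101 was at 52.8, 30.5 and 11.2 in brm-3, against 0, 0 and 7.25 in WT, with a log2 fold change of 3.76 ± 1.23 (SE, limma adjusted p = 0.0174). That call was lost without WT replicate 1 (limma adjusted p = 0.0662), WT replicate 2 (0.0623), brm-3 replicate 1 (0.0757) or brm-3 replicate 2 (0.0503), and without WT replicate 3 the log2 fold change was 4.78.

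FIT, the partner protein of the Ib factors, was at 168, 103 and 124 in brm-3, against 94.04, 31.03 and 52.4 in WT. The brm-3 libraries lay above the WT libraries, and the log2 fold change was 1.26 ± 0.48 (SE, limma adjusted p = 0.0391). This call did not hold when any 1 of 5 libraries was left out: WT replicate 2 (limma adjusted p = 0.173), WT replicate 3 (0.0735), brm-3 replicate 1 (0.138), replicate 2 (0.0502) or replicate 3 (0.0749). It was also lost under quantile normalization (0.119) and with brm-3 and WT fitted alone (0.102). IRT1, the iron importer, was at 61.6, 38.0 and 33.1 in brm-3, against 0, 0 and 23.6 in WT, and here too the libraries did not overlap. Its log2 fold change was 3.91 ± 1.32 (SE, limma adjusted p = 0.0216), and the call was lost without WT replicate 1 (limma adjusted p = 0.0895), WT replicate 2 (0.0886) or brm-3 replicate 1 (0.0696), and with both genotypes fitted alone (0.0705), while the log2 fold change was 5.45 without WT replicate 3. FRO2, the reductase that works with IRT1, did not follow it: it was at 19.7, 0 and 26.2 in brm-3, against 27.8, 15.1 and 36.8 in WT, with a log2 fold change of -1.65 ± 1.24 (SE, limma adjusted p = 0.298) and a 95% interval from -4.21 to 0.91.

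The uptake genes are known to be expressed in the root epidermis, and the seedlings were sampled whole, so that fewer cells of a type and less RNA per cell cannot be told apart. The 14 markers of root hair, endodermis and root tip summed to 613 to 1286 in brm-3, against 2363 to 2805 in WT, and none of them was at 0 in all brm-3 libraries. Of these markers 6 passed the thresholds lower and 1, the root tip gene WOX5, higher in brm-3, 7 of 14 where 40.0% of all genes tested were called. The 5 leaf mesophyll markers summed to 168101 to 310357 in brm-3, against 478801 to 592920 in WT, with 4 of the 5 called lower. The part of the root and leaf share in the changes of the iron genes was not tested.

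FER1, the ferritin that is known to respond most to iron in leaves, was lower in brm-3. It stood at 2032, 1987 and 2036 in brm-3, against 7019, 5473 and 13340.5 in WT, and the groups did not overlap. The log2 fold change was -1.99 ± 0.28 (SE, limma adjusted p = 8.5e-06), and every alternative tried kept this call, with -1.09 under the same total. FER3 was at 438, 590 and 715 in brm-3, against 738, 800 and 957 in WT, and its log2 fold change of -0.54 ± 0.19 (SE, limma adjusted p = 0.0308) missed the size threshold and was 0.36 with the same total per library. FER4, which is known to be targeted to mitochondria as well as plastids, was at 1640, 2279 and 1931 in brm-3, against 2121, 1272 and 1159 in WT (log2 fold change 0.40 ± 0.20, SE, limma adjusted p = 0.121).

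Several of these loci share transcribed bases with a neighbour. bHLH38 overlaps AT3G56960 on the opposite strand by 386 bases, and 356 of its 1052 31-mers, the word length of the quantification, also occur there. AT3G56960 was at 10.95, 18.4 and 2.59 in brm-3 and 20.1, 38.2 and 20.7 in bcl7a bcl7b, against 0, 0 and 22.8 in WT. In brm-1, where bHLH38 was at 0, 0 and 7.31, AT3G56960 was higher than in WT (log2 fold change 3.31, limma adjusted p = 0.04). bHLH101 overlaps AT5G04140 on the opposite strand by 79 bases, and that gene was at 1744 to 2032 in brm-3, against 953 to 1156 in WT (log2 fold change 0.83, limma adjusted p = 0.00242). AT5G04140 was at 2955 to 4551 in bcl7a bcl7b (log2 fold change against WT 1.77, limma adjusted p = 1.1e-05). In brm-1, where bHLH101 was listed at 0, it was at 1332 to 2307 (0.76, limma adjusted p = 0.00372). FER1 lies opposite AT5G01595 over 1334 bases, which was at 222 to 293 in brm-3, against 179 to 208 in WT. In bcl7a bcl7b brm-1, where FER1 was higher than WT, AT5G01595 was lower, at 17.3 to 78.5 (log2 fold change -1.98, limma adjusted p = 0.00586). In bcl7a bcl7b brm-3 it was at 50.5 to 147, lower than in WT (-1.37, limma adjusted p = 0.0428) and than in brm-3 (-1.73, limma adjusted p = 0.0289). There FER1 was called lower than in WT but higher than in brm-3. Whether the libraries keep the strand is not given in the sources used here, so reads of such pairs may not be separable, and their part in the results was not tested. FER4 overlaps AT2G40290 on the same strand by 118 bases, sharing 88 31-mers, and AT2G40290 was at 969 to 1049 in bcl7a bcl7b brm-1, against 552 to 691 in WT (log2 fold change 0.65, limma adjusted p = 0.0012). bHLH38 and bHLH39 share only 8 31-mers.

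Neither single bcl7 mutant moved these genes past the thresholds. In bcl7a 0 of the 10 genes passed, where 0.352% of all genes did, and in bcl7b 0 of 10, where 2.08% did; in both, 0 of 10 had an unadjusted limma p under 0.05. FER1 was at 4457, 10553 and 4836 in bcl7a, against 7019, 5473 and 13340.5 in WT. In bcl7b it was at 5339, 4919 and 5978. bHLH38 and bHLH100 were listed at 0 in all libraries of both mutants, as in WT. IRT1 was at 6.89, 7.63 and 22.4 in bcl7a and 0, 13.2 and 0 in bcl7b, against 0, 0 and 23.6 in WT, and the libraries of all 3 genotypes overlapped. FRO2 was at 0, 14.9 and 8.74 in bcl7a and 3.64, 8.21 and 8.36 in bcl7b, below all WT libraries at 27.8, 15.1 and 36.8, but its log2 fold changes of -2.27 and -1.82 did not pass (limma adjusted p = 0.483 and 0.487).

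In bcl7a bcl7b 2 of the 10 genes, bHLH38 and FER1, were past the thresholds against WT, where 22.1% of all genes were. The count is a description, since bHLH38 entered the test in part through bcl7a bcl7b. bHLH38 was at 9.13, 25.1 and 9.43 in bcl7a bcl7b and at 0 throughout WT. FER1 was at 3937, 3319 and 3960.4 in bcl7a bcl7b, below every WT library, with a log2 fold change of -1.14 ± 0.32 (SE, limma adjusted p = 0.0125). That call was lost without WT replicate 3 (limma adjusted p = 0.0642) or bcl7a bcl7b replicate 2 (0.0971), under quantile normalization (0.132), with the same total per library (0.669, or 0.0647 without the 100 highest genes) and with the 2 genotypes fitted alone (0.211). The root markers summed to 1593 to 1747 in bcl7a bcl7b, against 2363 to 2805 in WT, with none at 0 throughout bcl7a bcl7b, and the leaf mesophyll markers to 266679 to 406523, against 478801 to 592920 in WT. Of the 14 root markers 2 passed lower and 0 higher. Of the 5 leaf markers 1 passed lower and 0 higher, and they did not move together. RBCS1A and GAPA lay below all WT libraries, while RCA and CA1 had libraries on both sides of WT. RBCS2B, at 42546, 31093 and 42268 in bcl7a bcl7b, lay above all WT libraries at 27269, 29955 and 24595. The part of the root and leaf markers in these changes was not tested.

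Replicate 2 of bcl7a bcl7b stood apart from the near-identical pair in the uptake genes. IRT1 was at 10.5, 187 and 10.8 in bcl7a bcl7b, and bHLH39 at 6.41, 143 and 6.61, with replicate 2 the highest of all 24 libraries in both genes. IRT1 had a log2 fold change of 4.01 ± 1.48 (SE, limma adjusted p = 0.0545) and bHLH39 of 3.60 ± 1.49 (SE, limma adjusted p = 0.0853). bHLH101 did not show that spread, at 14.0, 18.5 and 14.5 in bcl7a bcl7b, against 0, 0 and 7.25 in WT (log2 fold change 3.09 ± 1.37, SE, limma adjusted p = 0.11). FIT was at 56.3, 105 and 52.5 in bcl7a bcl7b and FRO2 at 8.68, 23.7 and 8.96, and both overlapped WT. The departure of the double mutant from the sum of both single mutants passed for 0 of the 10 genes, where 6.01% of all genes did.

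In the null allele brm-1 the ferritins moved in different directions and FRO2 was lower. Relative to WT, 3 of the 10 genes passed the thresholds, where 48.1% of all genes did: FRO2 and FER1 lower and FER4 higher. FRO2 was at 0, 0 and 3.07 in brm-1, against 27.8, 15.1 and 36.8 in WT, a log2 fold change of -4.02 ± 1.24 (SE, limma adjusted p = 0.00973), and of -4.70 without brm-1 replicate 3. FER4 was at 3411, 3832 and 2335 in brm-1, above all WT libraries at 2121, 1272 and 1159, with a log2 fold change of 1.10 ± 0.20 (SE, limma adjusted p = 0.000129). FER1 was at 4334, 4844 and 4188 in brm-1, a log2 fold change of -0.85 ± 0.28 (SE, limma adjusted p = 0.0168), and that call was lost without WT replicate 3 (limma adjusted p = 0.153), under quantile normalization (0.095), with the same total per library (0.985, or 0.0541 without the 100 highest genes) and with the 2 genotypes fitted alone (0.0709).

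Neither IRT1 nor its regulators passed in brm-1. IRT1 and bHLH101 were listed at 0 in all 3 brm-1 libraries. bHLH38 was at 0, 0 and 7.31, bHLH100 at 0, 0 and 1.13, and bHLH39 at 1.61, 17.0 and 21.5 in brm-1. FIT was at 51.5, 78.0 and 89.6, within the range of WT. The root markers summed to 1042 to 1206 in brm-1, against 2363 to 2805 in WT, and none was at 0 in all brm-1 libraries. Of the 14 root markers 4 passed lower and 2 higher, where 48.1% of all genes tested were called. The leaf mesophyll markers summed to 204808 to 300110 in brm-1, against 478801 to 592920 in WT. The part of either in the brm-1 values was not tested.

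Both triple mutants had more FER4 than WT, with FER1 lower than WT in bcl7a bcl7b brm-3 and higher in bcl7a bcl7b brm-1. In bcl7a bcl7b brm-3, 3 of the 10 genes passed against WT, where 53.5% of all genes did. FRO2 was at 0, 0 and 6.70 in that mutant, against 27.8, 15.1 and 36.8 in WT (log2 fold change -3.72 ± 1.24, SE, limma adjusted p = 0.0142, with 0.0582 and 0.0564 without its replicate 1 or 2, and a log2 fold change of -4.70 without its replicate 3). FER4 was at 2935, 2309 and 2452 in bcl7a bcl7b brm-3, above all WT libraries (log2 fold change 0.80 ± 0.20, SE, limma adjusted p = 0.00212). FER1 was at 3504, 4038 and 5820 in bcl7a bcl7b brm-3, overlapping the lowest WT library, with a log2 fold change of -0.88 ± 0.28 (SE, limma adjusted p = 0.012). The FER1 call was lost without WT replicate 3 (limma adjusted p = 0.12) or bcl7a bcl7b brm-3 replicate 1 (0.0645), under quantile normalization (0.143), with the same total without the 100 highest genes (0.0669) and with the 2 genotypes fitted alone (0.0896). With the same total per library the sign turned, to a log2 fold change of 0.14 (limma adjusted p = 0.692).

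In bcl7a bcl7b brm-1, 3 of the 10 genes passed against WT, where 45.2% of all genes did, and they were the 3 ferritins, all higher. FER1 reached 18649, 18787 and 13997 in this triple mutant, above every one of the 21 other libraries, with a log2 fold change of 1.09 ± 0.28 (SE, limma adjusted p = 0.00328). FER3 was at 1643, 1752 and 1434, also above all 21 other libraries, with a log2 fold change of 0.96 ± 0.19 (SE, limma adjusted p = 0.000337). FER4 was at 2602, 2237 and 2545, above WT, with a log2 fold change of 0.75 ± 0.20 (SE, limma adjusted p = 0.00464), which dropped to 0.58, under the size threshold, without WT replicate 3. With the same total per library the 3 log2 fold changes were 2.01, 1.88 and 1.67, where the median over all genes was 1.17. The leaf mesophyll markers summed to 234484 to 344382 in bcl7a bcl7b brm-1 and to 139518 to 171398 in bcl7a bcl7b brm-3, against 478801 to 592920 in WT. Of the 5 leaf markers 3 passed lower in bcl7a bcl7b brm-1 and 5 in bcl7a bcl7b brm-3. The root markers summed to 883 to 1505 in bcl7a bcl7b brm-1, with none at 0 throughout, and to 754 to 1489 in bcl7a bcl7b brm-3, against 2363 to 2805 in WT. Of the 14 root markers 5 passed lower and 1 higher in bcl7a bcl7b brm-1. In bcl7a bcl7b brm-3, 7 passed lower and 2 higher, where 53.5% of all genes were called. The 3 root tip markers alone summed to 33.0 to 58.7 in bcl7a bcl7b brm-1 and 71.8 to 126 in bcl7a bcl7b brm-3, above 10.4 to 29.8 in WT. WOX5 and the endodermis marker MYB36 also lay above all WT libraries in both triple mutants. The part of the root and leaf markers in the ferritin and uptake values of the triple mutants was not tested.

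Among the uptake genes of the triple mutants, IRT1 was at 18.1, 1.63 and 0 in bcl7a bcl7b brm-3, and at 6.62, 23.98 and 54.001 in bcl7a bcl7b brm-1, against 0, 0 and 23.6 in WT. bHLH38 and bHLH100 were listed at 0 in all libraries of bcl7a bcl7b brm-1. In bcl7a bcl7b brm-3, bHLH38 was at 4.66, 0 and 0 and bHLH100 at 0 throughout. bHLH39 was at 0, 9.68 and 12.95 in bcl7a bcl7b brm-3 and at 1.65, 0 and 12.2 in bcl7a bcl7b brm-1. bHLH101 was at 0, 13.7 and 16.7 in bcl7a bcl7b brm-3 and listed at 0 in bcl7a bcl7b brm-1. FIT was at 56.7, 61.2 and 94.7 in bcl7a bcl7b brm-3 and 44.7, 25.5 and 62.0 in bcl7a bcl7b brm-1. FRO2 in bcl7a bcl7b brm-1 was at 4.71, 6.42 and 0, below all WT libraries, but its log2 fold change of -2.90 ± 1.24 (SE, limma adjusted p = 0.0587) missed the threshold.

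**Figure D2:**
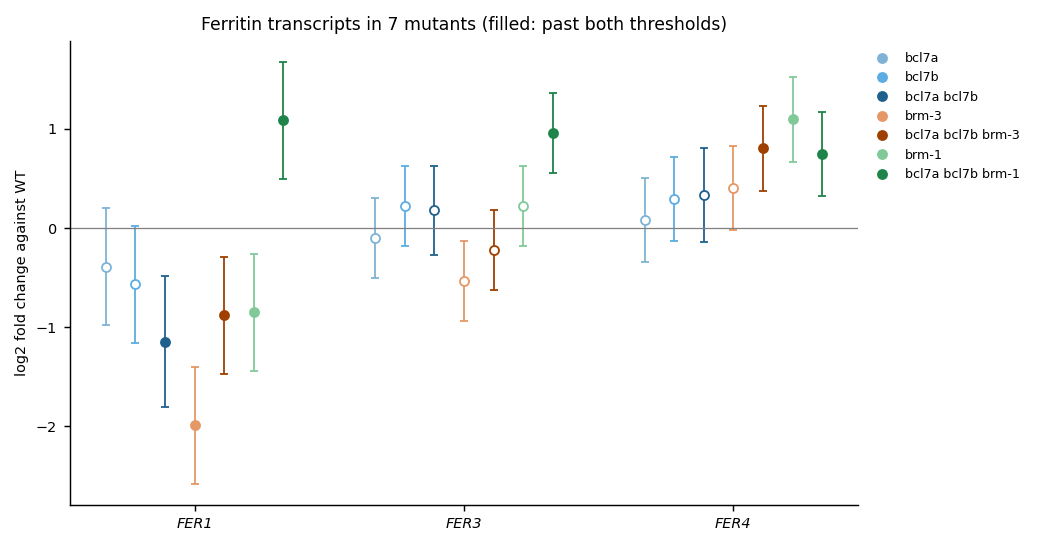
Log2 fold change of FER1, FER3 and FER4 in 7 mutants against WT, with 95% confidence intervals from limma, on a scale of log2(normalized count + 1). Filled points passed both thresholds. FER1 ranges from -1.99 in brm-3 to 1.09 in bcl7a bcl7b brm-1, whereas all 7 FER4 estimates lie above 0.

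The change of FER1 with the bcl7a bcl7b mutations differed between backgrounds. In the brm-3 background FER1 was higher with them, and bHLH38 and bHLH100 stood lower. Of the 10 genes 3 were past the thresholds in bcl7a bcl7b brm-3 against brm-3, where 21.2% of all genes were, a count that includes bHLH38 and bHLH100 and is a description. bHLH38 was at 4.66, 0 and 0 in bcl7a bcl7b brm-3, against 49.3, 60.9 and 24.01 in brm-3. bHLH100 was listed at 0 in bcl7a bcl7b brm-3, against 32.6, 32.2 and 18.6 in brm-3. FER1 was at 3504, 4038 and 5820 in bcl7a bcl7b brm-3, against 2032, 1987 and 2036 in brm-3, and the log2 fold change of 1.11 ± 0.28 (SE, limma adjusted p = 0.00668) held in all alternatives tried. bHLH39 (log2 fold change -3.67 ± 1.33, SE, limma adjusted p = 0.0502) and IRT1 (-3.56 ± 1.32, SE, limma adjusted p = 0.0565) were just outside the threshold.

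These comparisons within the 15 libraries of lower sum do not cross the split in library sums. The root markers summed to 754 to 1489 in bcl7a bcl7b brm-3, against 613 to 1286 in brm-3, with PLT2, a root tip regulator, at 0 throughout the triple mutant. Of the 14 root markers 1 passed, lower, and their part in the changes of the iron genes was not tested.

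In the brm-1 background IRT1, FER1 and FER3 were higher with bcl7a bcl7b. Of the 10 genes 3 passed in bcl7a bcl7b brm-1 against brm-1, all higher, where 29.5% of all genes passed. FER1 was at 18649, 18787 and 13997 in bcl7a bcl7b brm-1, against 4334, 4844 and 4188 in brm-1, a log2 fold change of 1.93 ± 0.28 (SE, limma adjusted p = 1.81e-05). FER3 was at 1643, 1752 and 1434 in bcl7a bcl7b brm-1, against 1030, 959 and 917 in brm-1 (log2 fold change 0.73 ± 0.19, SE, limma adjusted p = 0.0061). Both calls held in all alternatives tried. FER4 did not follow them, at 2602, 2237 and 2545 in bcl7a bcl7b brm-1, against 3411, 3832 and 2335 in brm-1 (log2 fold change -0.35 ± 0.20, SE, limma adjusted p = 0.215). IRT1 was at 6.62, 23.98 and 54.001 in bcl7a bcl7b brm-1 and listed at 0 throughout brm-1 (limma adjusted p = 0.0128, and 0.0692 without bcl7a bcl7b brm-1 replicate 3). The root markers summed to 883 to 1505 in bcl7a bcl7b brm-1, against 1042 to 1206 in brm-1.

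The interaction terms test these differences between backgrounds. They include the comparison of bcl7a bcl7b with WT, which crosses the difference in library sums. For bcl7a bcl7b with brm-3, 5 of the 10 genes had an adjusted p under 0.05, where 11.5% of all genes did. The 5 include bHLH38 and bHLH100, which entered the test through the brm-3 libraries, so that the count is a description. FER1 fell with bcl7a bcl7b in WT and was raised by it in brm-3, an interaction of 2.25 ± 0.43 (SE, limma adjusted p = 0.00126), and of 1.41 under the same total with the call kept. The other 4 were bHLH38, bHLH39, bHLH100 and IRT1, all negative. IRT1 had an interaction of -7.57 ± 1.99 (SE, limma adjusted p = 0.0144) and bHLH39 of -7.27 ± 1.99 (SE, limma adjusted p = 0.0191). Without replicate 2 of bcl7a bcl7b, these were -5.57 (limma adjusted p = 0.116) and -5.14 (limma adjusted p = 0.147). With the 4 genotypes fitted alone, their adjusted p were 0.0675 and 0.0714. Without bcl7a bcl7b brm-3 replicate 1, bHLH39 was at -6.07 (limma adjusted p = 0.0548). The interactions of bHLH38 and bHLH100 also rest on genotypes listed at 0. No size is given for them, and their adjusted p, listed among the flagged results, are no test of a difference.

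For bcl7a bcl7b with brm-1, 3 of the 10 genes had an adjusted p under 0.05, where 31.2% of all genes did. FER1 had an interaction of 3.08 ± 0.43 (SE, limma adjusted p = 1.18e-05), and no alternative tried ended this call or the corresponding one with brm-3. The count includes bHLH38, which entered the test in part through bcl7a bcl7b. Its adjusted p, listed among the flagged results, is therefore no test of a difference, and the count is a description. bHLH39 had an interaction of -5.24 ± 1.99 (SE, limma adjusted p = 0.0489), which was not below 0.05 when any 1 of 7 libraries was left out, with an adjusted p of 0.322 without bcl7a bcl7b replicate 2, 0.0991 and 0.103 without WT replicate 2 or 3, 0.103 and 0.104 without brm-1 replicate 2 or 3, and 0.0808 and 0.123 without bcl7a bcl7b brm-1 replicate 1 or 2 (limma). That call was also lost with a pseudocount of 0.1 (limma adjusted p = 0.0658), no filter (0.0589), quantile normalization (0.0969), all 24 libraries as deposited (0.0637) and the 4 genotypes alone (0.109).

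**Figure D3:**
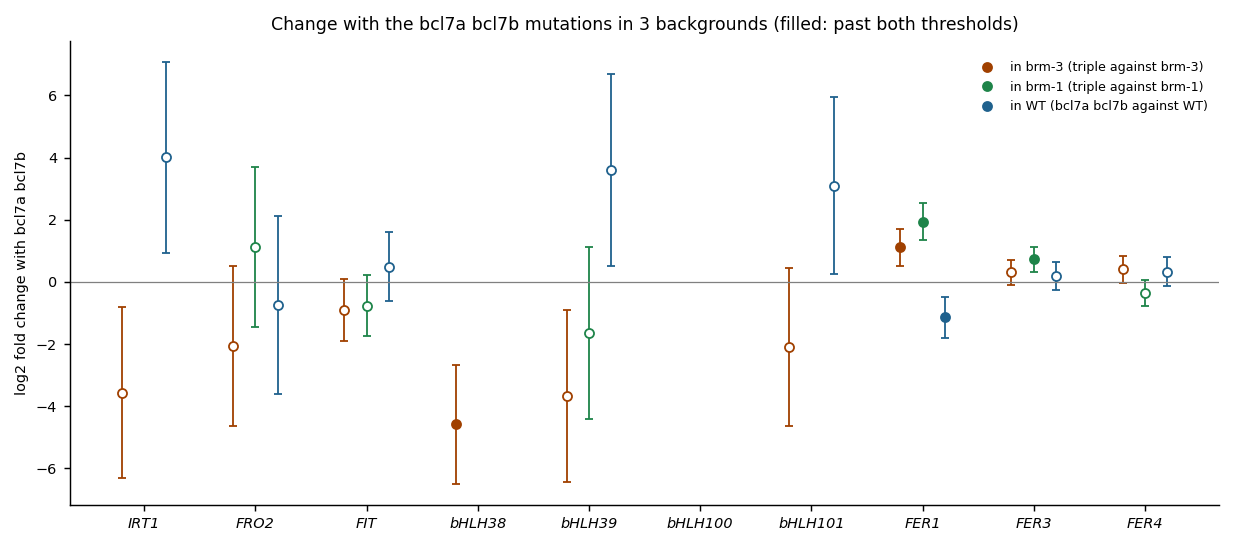
Log2 fold change with the bcl7a bcl7b mutations in the brm-3 background, the brm-1 background and WT for the 10 genes, with 95% confidence intervals from limma. Filled points passed both thresholds, and no point is drawn where either genotype was listed wholly at 0; the bHLH38 point in the brm-3 background is a description, since that gene entered the test through the brm-3 libraries. The FER1 estimates are 1.11 in brm-3, 1.93 in brm-1 and -1.14 in WT.

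A direct comparison of the brm alleles with the double mutant was also made. In brm-3 against bcl7a bcl7b, 2 of the 10 genes, bHLH100 and FER3, were past the thresholds, where 11.3% of all genes were. bHLH100, which entered the test through the brm-3 libraries, was at 32.6, 32.2 and 18.6 in brm-3, against 4.48, 0 and 4.62 in bcl7a bcl7b. FER3 was at 438, 590 and 715 in brm-3, against 1067, 822 and 1062 in bcl7a bcl7b (log2 fold change -0.71 ± 0.22, SE, limma adjusted p = 0.0358), a call lost without bcl7a bcl7b replicate 2 (limma adjusted p = 0.0525), brm-3 replicate 1 (0.172) or brm-3 replicate 2 (0.0705), and with the 2 genotypes fitted alone (0.143). For IRT1 and bHLH39 the 95% intervals of this difference ran from -3.17 to 2.97 and from -2.04 to 4.12 on the log2 scale, which hold both 0 and large differences.

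In brm-1 against bcl7a bcl7b, 4 of the 10 genes were past the thresholds, where 21.4% of all genes were, a count that includes bHLH38 and is a description. IRT1, at 0 throughout brm-1 and at 10.5, 187 and 10.8 in bcl7a bcl7b, was lower in brm-1 (limma adjusted p = 0.00919, and 0.207 without bcl7a bcl7b replicate 2). bHLH101, at 0 throughout brm-1 and at 14.0, 18.5 and 14.5 in bcl7a bcl7b, was also lower (limma adjusted p = 0.0349). The bHLH101 call was lost without bcl7a bcl7b replicate 2, and without brm-1 replicate 1 (limma adjusted p = 0.0736), replicate 2 (0.0771) or replicate 3 (0.0669). bHLH38 was at 0, 0 and 7.31 in brm-1 and 9.13, 25.1 and 9.43 in bcl7a bcl7b. FER4 was at 3411, 3832 and 2335 in brm-1, against 1672, 2013 and 1682 in bcl7a bcl7b, a log2 fold change of 0.77 ± 0.23 (SE, limma adjusted p = 0.0187), and 0.0652 and 0.0958 without brm-1 replicate 1 or 2. The FER4 call was also lost under quantile normalization (0.051), the same total (0.064, or 0.0627 without the 100 highest genes) and the 2 genotypes alone (0.0667).

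Across the 8 genotypes FER1 had the clearest order. The bcl7a bcl7b brm-1 libraries, with a mean of 17144 ± 2726 (SD, n = 3), lay above all others, and those of brm-3, with a mean of 2018 ± 26.8 (SD, n = 3), lay below all others. Between these ends, bcl7a (6615 ± 3415, SD, n = 3), bcl7b (5412 ± 533, SD, n = 3), brm-1 (4456 ± 344, SD, n = 3), bcl7a bcl7b brm-3 (4454 ± 1212, SD, n = 3), bcl7a bcl7b (3634 ± 445, SD, n = 2) and WT (8611 ± 4168, SD, n = 3) lay closer together: in the order of their means each overlapped its neighbour, except bcl7b and brm-1, whose libraries did not. FER3 ranged between means of 1609.95 ± 162 in bcl7a bcl7b brm-1 and 581 ± 139 in brm-3 (SD, n = 3 each), with WT at 832 ± 113 (SD, n = 3). FER4 had another order, with means of 3193 ± 772 in brm-1 at the top and 1517 ± 526 in WT at the bottom (SD, n = 3 each).

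In single libraries, low FER1 went with high Ib transcripts at 1 end of the range. The 4 Ib genes summed to 207, 203 and 105 in brm-3, where FER1 was between 1987 and 2036, and to 34.0, 186 and 35.1 in bcl7a bcl7b, where FER1 was between 3319 and 3960.4. They summed to 1.65, 0 and 12.2 in bcl7a bcl7b brm-1, where FER1 was highest. The libraries of bcl7a, bcl7b, brm-1, bcl7a bcl7b brm-3 and WT had sums of 0 to 29.97, with FER1 anywhere between 3504 and 13340.5.

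**Figure D4:**
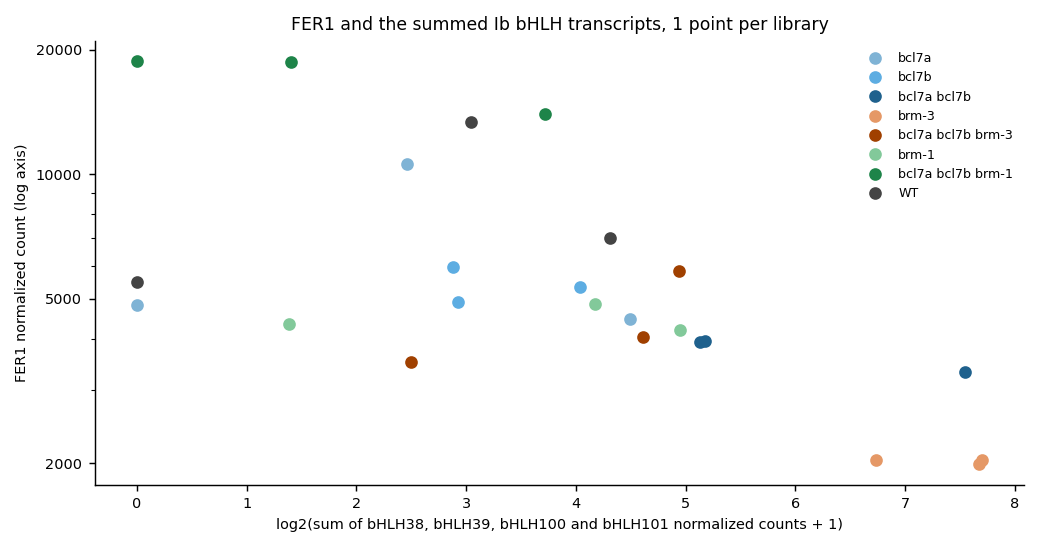
FER1 normalized count (log axis) against the summed normalized counts of bHLH38, bHLH39, bHLH100 and bHLH101, as log2(sum + 1), 1 point for each of 24 libraries coloured by genotype. The 3 brm-3 libraries sit at the lower right and the 3 bcl7a bcl7b brm-1 libraries at the upper left, and the other libraries with a sum of up to 29.97 show no common level of FER1. The plot is a description, since bHLH38 and bHLH100 entered the test only or mainly through the brm-3 libraries. Replicates 1 and 3 of bcl7a bcl7b are near-identical.

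Beyond these genes, a list of 53 other genes of iron uptake, coumarin secretion, regulation, transport and storage was counted, of which 49 passed the filter. In brm-3 8 of the 49 were higher and 7 lower than in WT, with a median log2 fold change of 0.20, against 0.27 over all genes tested, of which 40.0% were called in either direction. In brm-1 6 were higher and 10 lower (median -0.19, against 0.35 over all genes, 48.1% of them called). In bcl7a bcl7b brm-3 8 were higher and 14 lower (median -0.45, against 0.30, with 53.5% of all genes called), and in bcl7a bcl7b brm-1 11 were higher and 12 lower (median -0.00051, against 0.29, with 45.2% called). In bcl7a bcl7b 4 were higher and 3 lower (median -0.05, against 0.19, with 22.1% called). The single mutants had 0 higher and 1 lower in bcl7a, where 0.352% of all genes were called, and 0 higher and 2 lower in bcl7b, where 2.08% were.

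Some regulators of the list that act above the 10 genes were also altered, named in part because they passed in these data. Of its 14 regulators tested, 3 were called higher and 2 lower in brm-3, where 40.0% of all genes were called. The counts were 3 and 2 in brm-1 (48.1% of all genes) and 1 and 1 in bcl7a bcl7b (22.1%). They were 3 and 3 in bcl7a bcl7b brm-3 (53.5%) and 4 and 3 in bcl7a bcl7b brm-1 (45.2%). ILR3, a bHLH protein that activates the Ib genes and with PYE represses ferritin genes, was lower in all 5 mutants with bcl7a bcl7b or a brm allele. It was at 1755, 1807 and 2315 in brm-3, 1408, 1184 and 1339 in brm-1, and 1954, 2625 and 1915 in bcl7a bcl7b, against 5598, 6895 and 7946 in WT. The log2 fold changes were -1.79, -2.37 and -1.58 (limma adjusted p = 8.7e-08, 7.1e-10 and 1e-05), and those of bcl7a bcl7b brm-3 and bcl7a bcl7b brm-1 were -2.90 and -2.04. NAI1, also called bHLH20, one of the group IVa bHLH proteins that are known to promote FIT breakdown, was higher in the same 5 mutants. It was at 979, 1192 and 804 in brm-3, 988, 1057 and 740.2 in brm-1 and 693, 854 and 703 in bcl7a bcl7b, against 198, 248 and 192 in WT, with log2 fold changes of 2.21, 2.11 and 1.86. Neither gene passed in bcl7a or bcl7b, where ILR3 was at 5075 to 5707 and 3973 to 5468.

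bHLH121, an activator of the Ib genes, was lowest in bcl7a bcl7b brm-1, at 189, 183 and 227, against 574, 646 and 1127 in WT (log2 fold change -1.91, limma adjusted p = 8.2e-07). PYE, a repressor of iron distribution genes, was at 426, 213 and 224 in brm-3, against 105, 169 and 155 in WT (log2 fold change 0.96, limma adjusted p = 0.043), a call lost without WT replicate 1 (0.149), WT replicate 3 (0.057) or brm-3 replicate 1 (0.23), with no filter (0.0516), under quantile normalization (0.0873) and with the 2 genotypes alone (0.0885). BTS, an E3 ligase that restrains the response, was at 322, 245 and 250 in brm-3, within the WT range of 171 to 280 but for 1 library, and at 136, 123 and 55.3 in bcl7a bcl7b brm-3 (log2 fold change against WT -1.15, limma adjusted p = 0.0048), a call lost without bcl7a bcl7b brm-3 replicate 3 (0.0511), with the same total per library (log2 fold change -0.14, limma adjusted p = 0.715) and with the 2 genotypes alone (0.073).

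AT1G47400, AT1G47395 and AT2G30766, which have no symbol in RefSeq, stood higher in every brm-3 library than in any WT library. AT1G47400 was at 294, 171 and 219.6 in brm-3 and at 0 in all 3 bcl7a bcl7b brm-1 libraries, against 33.4, 44.5 and 16.1 in WT (log2 fold change in brm-3 2.90, limma adjusted p = 0.002). AT1G47395 was at 199, 162 and 169.6 in brm-3 and at 0 throughout bcl7a bcl7b brm-1, against 32.0, 50.7 and 14.6 in WT (log2 fold change in brm-3 2.57, limma adjusted p = 0.007, and 0.0851 with a pseudocount of 0.1). AT2G30766 was at 52.5, 25.0 and 31.7 in brm-3 and 56.1, 26.0 and 53.4 in bcl7a bcl7b, and was listed at 0 in WT, and it entered the test through these libraries.

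Among transport and storage genes, NAS4, a nicotianamine synthase, was called higher than WT in the same 5 mutants, although not in bcl7a bcl7b (limma adjusted p = 0.248), brm-1 (0.0739) or bcl7a bcl7b brm-3 (0.0692) when each was fitted with WT alone. It was at 389, 162 and 198 in brm-3 and 315, 328 and 377 in bcl7a bcl7b brm-1, against 0, 48.1 and 7.37 in WT. FER2, the ferritin known from seeds, was at 314, 172 and 171 in bcl7a bcl7b brm-1, against 0, 8.39 and 14.7 in WT (log2 fold change 5.32, limma adjusted p = 0.0002, with 4.12 without WT replicate 1 and 6.11 without WT replicate 3). FRO6, a ferric reductase of shoots, was at 83.4, 67.8 and 92.3 in bcl7a bcl7b brm-1, against 563, 850 and 968 in WT (log2 fold change -3.25, limma adjusted p = 5.2e-11). NRAMP1, a manganese and iron transporter, VTL2, a vacuolar iron transporter-like protein, and YSL3, a transporter of metal-nicotianamine complexes, were changed in brm-1 and both triple mutants, NRAMP1 and VTL2 lower and YSL3 higher. NRAMP1 and VTL2 were also called lower in brm-3, and VTL2 in bcl7a bcl7b. Both brm-3 calls were lost with the same total per library (limma adjusted p = 0.109 for NRAMP1 and 0.403 for VTL2). With the same total per library, NRAMP1 in brm-1 (log2 fold change -0.51, limma adjusted p = 0.118) and bcl7a bcl7b brm-1 (0.0285, 0.936) and VTL2 in brm-1 (-0.39, 0.389) were no longer called, and NRAMP1 in bcl7a bcl7b brm-1 turned in sign. IRT2, the closest relative of IRT1, passed only in bcl7a bcl7b brm-3, lower, at 10.3, 0.821 and 35.9, against 17.8, 59.1 and 93.6 in WT (log2 fold change -2.38, limma adjusted p = 0.018), a call lost without WT replicate 3 (0.0873) or bcl7a bcl7b brm-3 replicate 2 (0.175), with the same total per library (0.126) and with the 2 genotypes alone (0.171).

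**Figure D5:**
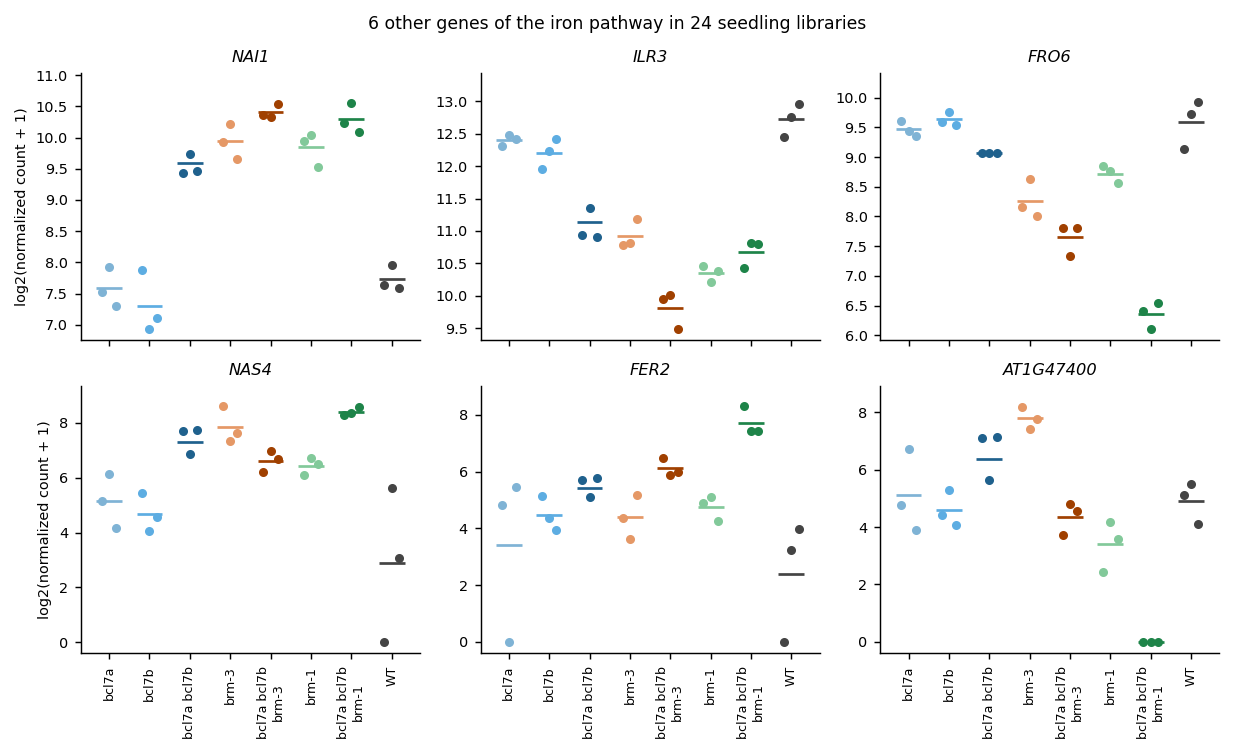
Normalized counts of 6 other genes of the iron pathway on a log2(normalized count + 1) axis in 24 libraries, 1 point per library, with the mean of each genotype as a line. NAI1 and NAS4 are higher and ILR3 is lower in the 5 mutants with bcl7a bcl7b or a brm allele, and AT1G47400 is at 0 in the 3 bcl7a bcl7b brm-1 libraries.

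The genes whose 8 genotype means ran closest to those of a member were taken by the root mean square difference of centred log2 profiles, as a description over 8 genotypes. For FER1, whose own profile has a root mean square of 0.837, they were XCP1, a xylem cysteine protease (difference 0.222), c-NAD-MDH2, a cytosolic malate dehydrogenase (0.276), and AT3G56200 (0.283). For bHLH39 (profile 1.69) they were GulLO4 (0.484), LpxC3 (0.606) and AT4G32780 (0.640). For IRT1 (profile 1.94) the closest were AT1G67855 (0.898), BGLU19 (0.951) and AT5G07330 (0.985).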

How the data were processed

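RNA-seq of 24 seedling libraries was analysed from the table that the authors deposited. Per the labels and methods, reads were quantified with Salmon 1.5.1 against AtRTD2 (build TAIR10) and normalized with DESeq2 (given as version 3.10) using size factors of all samples, from inputs described as TPM. The deposited values are normalized counts and were taken as a signal, since not all of them were whole multiples of 1 fragment. With 1 fragment worth an estimated 0.648 to 1.998, the latter being the upper limit of the search, a gene at 0 is only below about that level. After a pseudocount of 1 was added, log2 values of the 21596 genes reaching 10 in 3 or more libraries were fitted with limma 3.58.1 in R 4.3.3 (moderated with a mean trend; tables read by the package data.table, version 1.17.8), with 1 mean per genotype over 23 samples, and p-values were adjusted by Benjamini-Hochberg. The procedure was tested on simulated data. Replicates were described as biological. Gene names and sequences came from RefSeq TAIR10.1, in which 32954 identifiers matched. The 10 genes, the other gene lists and the markers were chosen with earlier results of these data known. Genes of the list were named where they passed in brm-1 and both triple mutants with all libraries on 1 side of WT, or as close paralogs or regulators of the 10 genes. Alternatives were pseudocounts of 0.1 and 5, no filter, a filter at a mean of 50, quantile normalization, the same total per library with and without the 100 highest genes, the compared genotypes alone, a replicate block, all 24 libraries as deposited and leaving out each library.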

Additional observations from a re-analysis of the deposited data

Results flagged for a closer look

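An interaction of the bcl7a bcl7b mutations with the background was flagged for 5 of the 10 genes, a count that is a description. It was flagged for 3 with brm-1, where 31.2% of all genes had such a term, and for 5 with brm-3, where 11.5% had. With brm-1, the interaction was at a limma adjusted p of 1.18e-05 for FER1, 0.00751 for bHLH38 and 0.0489 for bHLH39, and that of bHLH39 was lost in 13 of 21 alternatives. With brm-3, it was at 0.00126 for FER1, 0.0144 for IRT1, 0.000244 for bHLH38, 0.0191 for bHLH39 and 0.00212 for bHLH100 (limma adjusted p). bHLH100 entered the test through the brm-3 libraries, and bHLH38 through those and 1 of bcl7a bcl7b. Their values with brm-3, and that of bHLH38 with brm-1, are therefore only listed and are no test of a difference. The terms with brm-1 and brm-3 share the bcl7a bcl7b and WT libraries. They include the comparison of bcl7a bcl7b with WT, which crosses the difference in library sums.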

How the results depend on the processing

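Counts of the 10 genes past the thresholds changed by over 1.5 times under these settings. A filter at a mean of 50, which leaves 4 of the 10 genes, gave 1 in bcl7a bcl7b and 2 in brm-3 against WT, and 1 each in bcl7a bcl7b brm-3 against brm-3, brm-3 against bcl7a bcl7b, brm-1 against bcl7a bcl7b and both interactions. Pseudocount 5, the same total, the same total without the 100 highest genes and the compared genotypes alone each gave 5 in bcl7a bcl7b brm-3 against brm-3. No filter, the same total and the compared genotypes alone each gave 1 for additivity of bcl7a and bcl7b. In bcl7a bcl7b against WT, quantile normalization and the compared genotypes alone gave 1 and the same total 7. The same total gave 5 for the interaction with brm-1, and the compared genotypes alone gave 3 for the interaction with brm-3 and 0 in brm-3 against bcl7a bcl7b. The cause was not tested. Rescaling to the same total moved the median over all genes of the log2 fold change in bcl7a bcl7b against WT to 1.11, against 0.19, and the share of called genes that were higher to 96.8%, against 54.0%. In brm-3 against WT these were 1.11, against 0.27, and 92.4%, against 58.7%. Under that rescaling FER1 (0.14) and FER3 (0.79) in bcl7a bcl7b brm-3, bHLH121 in bcl7a bcl7b (0.71), brm-3 (0.22) and brm-1 (0.18), and NRAMP1 in bcl7a bcl7b brm-1 (0.0285) turned to a positive log2 fold change against WT, all below the shifted median. Over all results and these settings, 3321 values stayed on their side of the threshold, 79 lost the call, 108 gained one and 6 turned in sign. With 1 library left out, 2508 stayed on their side, 114 lost the call and 30 gained one. Direction was compared only where a call was made in the main fit or in the alternative, so turns among values called in neither are not counted.

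Leaving out 1 library gave 0 to 3 genes in bcl7a bcl7b against WT, 4 to 7 in brm-3, 2 to 4 in brm-1, 2 to 3 in bcl7a bcl7b brm-3 and 3 to 3 in bcl7a bcl7b brm-1 against WT, 3 to 4 in bcl7a bcl7b brm-3 against brm-3, 2 to 3 in bcl7a bcl7b brm-1 against brm-1, 0 to 2 in brm-3 and 1 to 4 in brm-1 against bcl7a bcl7b, and 1 to 4 and 3 to 6 for the interactions with brm-1 and brm-3. The single mutants and additivity stayed at 0. The lowest counts in bcl7a bcl7b against WT and in both interactions came without bcl7a bcl7b replicate 2. Where a genotype was left with 1 sample, it was assumed to vary like the others.

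Same-numbered replicates did not deviate together (84 correlations, from -0.0723 to 0.115, with 1 over 0.1), so the numbers do not pair the samples. With the replicate number as a block, the counts were 2 in bcl7a bcl7b, 7 in brm-3 and 3 in each of brm-1 and the triple mutants against WT, 3 in brm-3 against bcl7a bcl7b, and 2 and 6 for the interactions with brm-1 and brm-3, where that of bHLH39 with brm-1 was at a limma adjusted p of 0.0758. In 3 of 28 pairs of genotypes every sample correlated best with its own number. Depth limits the genes near 1 fragment: a value of 0 for IRT1, FRO2 or the Ib genes does not show that the transcript was absent.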

Other observations

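NAS3, which encodes a nicotianamine synthase, was singled out after its values had been seen. It was at 9.82, 6.19 and 15.3 in brm-3, 48.3, 133 and 49.9 in bcl7a bcl7b and 279, 251 and 201 in brm-1, against 959, 1006 and 848 in WT. Its log2 fold changes against WT were -6.44 in brm-3, -3.52 in bcl7a bcl7b and -1.95 in brm-1 (limma adjusted p = 1.4e-11, 1.8e-06 and 7.4e-05). In bcl7a bcl7b brm-3 it was at 695.5, 245 and 428, above all brm-3 libraries, with a log2 fold change of 5.28 against brm-3 (limma adjusted p = 5.1e-10). NAS3 was thus lowest where FER1 was lowest and the Ib genes were highest, while its relative NAS4 was higher in the same brm-3 libraries, at 389, 162 and 198, against 0, 48.1 and 7.37 in WT.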
